A study of Mus musculus with 6 samples.

Results

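The LIN28, IGF2BP and HMGA genes and Arid3a were examined in mouse leukaemia initiating cells (LICs), the cells of a leukaemia that can start the disease again. The set was chosen by gene symbol and holds 8 of the 23337 genes in the deposited count table: Lin28a, Lin28b, Igf2bp1, Igf2bp2, Igf2bp3, Hmga1, Hmga2 and Arid3a. PolyA-selected RNA of sorted LICs was sequenced from leukaemia of neonatal age (3 libraries, replicates 4, 7 and 8) and of adult age (3 libraries, replicates 1, 2 and 4). All 6 libraries carry the same source label, haematopoietic stem and progenitor cells. The labels give no strain, sex, exact age, leukaemia driver or treatment for either group, and no markers used in the sort. They also do not say whether the libraries came from separate mice, so p-values measure the spread between these libraries, which may be technical. In sorted bulk RNA, fewer cells of a type and less RNA per cell cannot be told apart.

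Neonatal replicate 4 held 3932833 counts, and the other 5 libraries held between 60113466 and 66132051, on average 16.2 times as many. Each result below is therefore also given without that library where it matters. A count of 0 was read with a floor of 3 counts, which is 0.763 CPM (counts per 1000000 counts of the library total) in neonatal replicate 4 and at most 0.0499 CPM elsewhere; floors and counting intervals cover counting error only. All other CPM values are on library sizes scaled with TMM (trimmed mean of M-values). The label was checked against 8 markers of progenitors and myeloid leukaemia cells (Ptprc, Kit, Cd34, Flt3, Hoxa9, Meis1, Mpo and Itgam). None was at 0 in all libraries, and their sum was 2614 to 2919 CPM in neonatal libraries and 1936 to 11097 CPM in adult libraries. Different genes made up these sums. Mpo was the largest part in every adult library, at 1874, 1097 and 10368 CPM in adult libraries 1, 2 and 4. It measured 1980, 672 and 61.0 CPM in neonatal libraries 4, 7 and 8. Single markers split the groups without overlap: Cd34 measured 396 to 662 CPM in neonatal libraries, against 8.16 to 105 CPM in adult ones, and Flt3 256 to 1231 CPM, against 4.58 to 19.4 CPM. Itgam ran the other way, at 4.48 to 59.6 CPM in neonatal libraries, against 63.8 to 215 CPM in adult ones. None of the 8 passed on 6 libraries, and Kit and Flt3 passed as higher in neonatal LICs without neonatal replicate 4. Xist, made by female cells, was at 51.7 to 186 CPM in neonatal libraries and 0.610 to 0.919 CPM in adult libraries, and the Y-linked Kdm5d had no count in any neonatal library. Sex and age group went together in all 6 libraries, so for the 8 genes they cannot be told apart.

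LIN28A and LIN28B are RNA-binding proteins best known for blocking the maturation of let-7 microRNAs, and in mouse blood formation LIN28B marks the fetal stage. Mature let-7 in turn silences mRNAs that carry matches to its seed, among them those of Lin28, Hmga2 and the IGF2BP genes. IGF2BP1, IGF2BP2 and IGF2BP3 bind and stabilise mRNAs, including Igf2 and Myc. HMGA1 and HMGA2 are small chromatin proteins that bind AT-rich DNA, and HMGA2 supports the self-renewal of fetal stem cells. ARID3A is a DNA-binding protein of B cell development, and in mouse progenitors its gene acts downstream of Lin28b towards a fetal type of lymphocyte development.

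Each of the 8 genes holds a match to the let-7 seed, so the let-7 sequences and 1 match in each gene are shown. The 9 distinct mouse let-7 family 5p microRNAs in RefSeq (build GRCm38.p6) carry the same seed, printed in capitals as bases 2 to 8, and differ only outside it.
let-7a: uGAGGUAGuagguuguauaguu
let-7b: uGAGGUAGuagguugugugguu
let-7c: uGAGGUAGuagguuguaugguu
let-7d: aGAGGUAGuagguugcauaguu
let-7e: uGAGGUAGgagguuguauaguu
let-7f: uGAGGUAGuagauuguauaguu
let-7g: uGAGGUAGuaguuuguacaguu
let-7i: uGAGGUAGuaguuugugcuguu
miR-98: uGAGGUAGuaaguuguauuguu
LIN28 proteins bind let-7 precursors at a GGAG motif in the terminal loop. Of the 12 mouse let-7 hairpins, 9 hold GGAG after the 5p arm, and those of Mirlet7b, Mirlet7c-2 and Mir98 do not. The let-7g hairpin (RefSeq, GRCm38.p6, chr9:106178840-106178927, plus strand) is shown with GGAG in capitals.
Mirlet7g: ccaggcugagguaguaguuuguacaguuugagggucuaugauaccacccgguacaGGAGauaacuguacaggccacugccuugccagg

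The seed match, CTACCTC on the mRNA strand, was searched on that strand in the longest 3′ UTR of each gene in GENCODE M21 (GRCm38, the assembly of mm10). Each of the 8 genes held at least 1 match, whereas 8.96% of 20979 mouse 3′ UTRs did. The first match of each gene after the stop codon is printed with the match in capitals.
Lin28a (chr4:134005189-134005211, minus strand): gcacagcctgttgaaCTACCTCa
Lin28b (chr10:45381022-45381044, minus strand): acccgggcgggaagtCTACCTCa
Igf2bp1 (chr11:95961778-95961800, minus strand): gctgtgcgaagtaaaCTACCTCa
Igf2bp2 (chr16:22059473-22059495, minus strand): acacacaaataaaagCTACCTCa
Igf2bp3 (chr6:49086787-49086809, minus strand): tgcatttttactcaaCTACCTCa
Hmga1 (chr17:27563277-27563299, plus strand): tcctctgttcacaaaCTACCTCt
Hmga2 (chr10:120364224-120364246, minus strand): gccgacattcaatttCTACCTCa
Arid3a (chr10:79953895-79953917, plus strand): aaggcaagtttctttCTACCTCa
In 7 of these 8 sites the match is followed by A, which lengthens it to 8 bases, and in Hmga1 it is followed by T. Lin28b, Igf2bp1 and Hmga2 held 4 matches each, Lin28a and Arid3a held 2, and Igf2bp2, Igf2bp3 and Hmga1 held 1. Long UTRs hold more matches by length alone, so each gene was set beside UTRs of 0.8 to 1.25 times its length. At least as many matches were found in 0.0829% of such UTRs for Hmga2, 0.166% for Igf2bp1 and 0.223% for Lin28b. The share was 2.04% for Lin28a, 2.34% for Arid3a, 8.09% for Hmga1, 12.0% for Igf2bp2 and 13.3% for Igf2bp3. The genes are known let-7 targets, so the presence of matches was part of why they form a set, and a match does not show that the site is used in these cells.

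**Figure D1:**
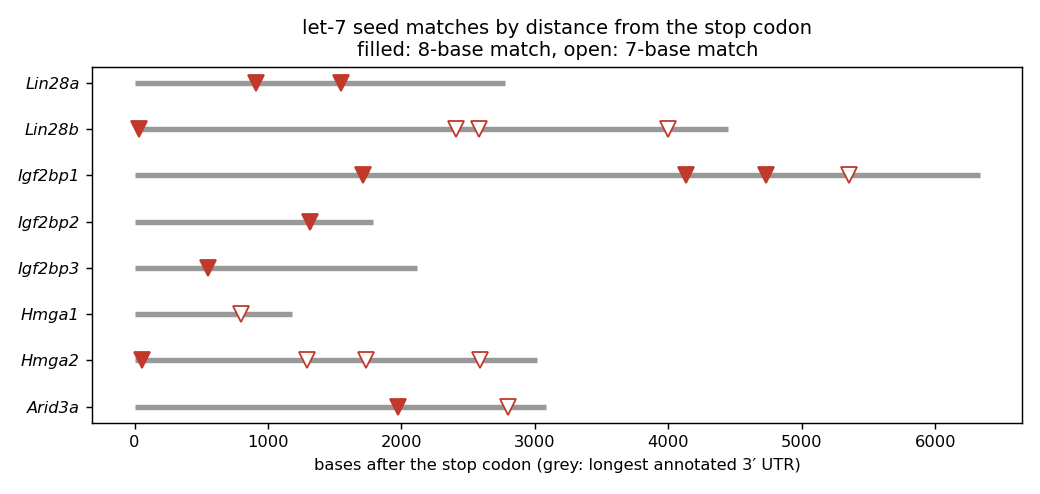
Positions of let-7 seed matches in the longest annotated 3′ UTR of each of the 8 genes (grey line), in bases after the stop codon (x axis). Filled triangles are 8-base matches and open triangles 7-base matches; Lin28b, Igf2bp1 and Hmga2 have 4 each.

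Of the 8 genes, 6 passed the filter on low counts and were tested, and Lin28b and Igf2bp1 did not. None of the 6 differed between neonatal and adult LICs past an adjusted p of 0.05 (edgeR quasi-likelihood test, Benjamini-Hochberg over 13272 genes), where 0.0527% of all tested genes (7) did. With chromosomes X and Y left out, 0 genes of the whole table passed. Without neonatal replicate 4, 0 of the 6 passed, where 5.98% of 13856 tested genes (828) did. Igf2bp2 and Lin28a had an unadjusted p under 0.05, both with lower values in neonatal LICs, and all 3 neonatal libraries lay below all 3 adult libraries for both. Over all tested genes 11.9% had such a p in either direction and 7.01% with lower neonatal values, and 12% had neonatal libraries wholly below the adult ones (7.67% wholly above). The other 4 overlapped between the groups. The signs were 3 positive and 3 negative, against 53.5% positive and 46.5% negative over all tested genes. The median log2 fold change (neonatal minus adult) was 0.16 over the 6 genes and 0.05 over all tested genes.

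**Figure D2:**
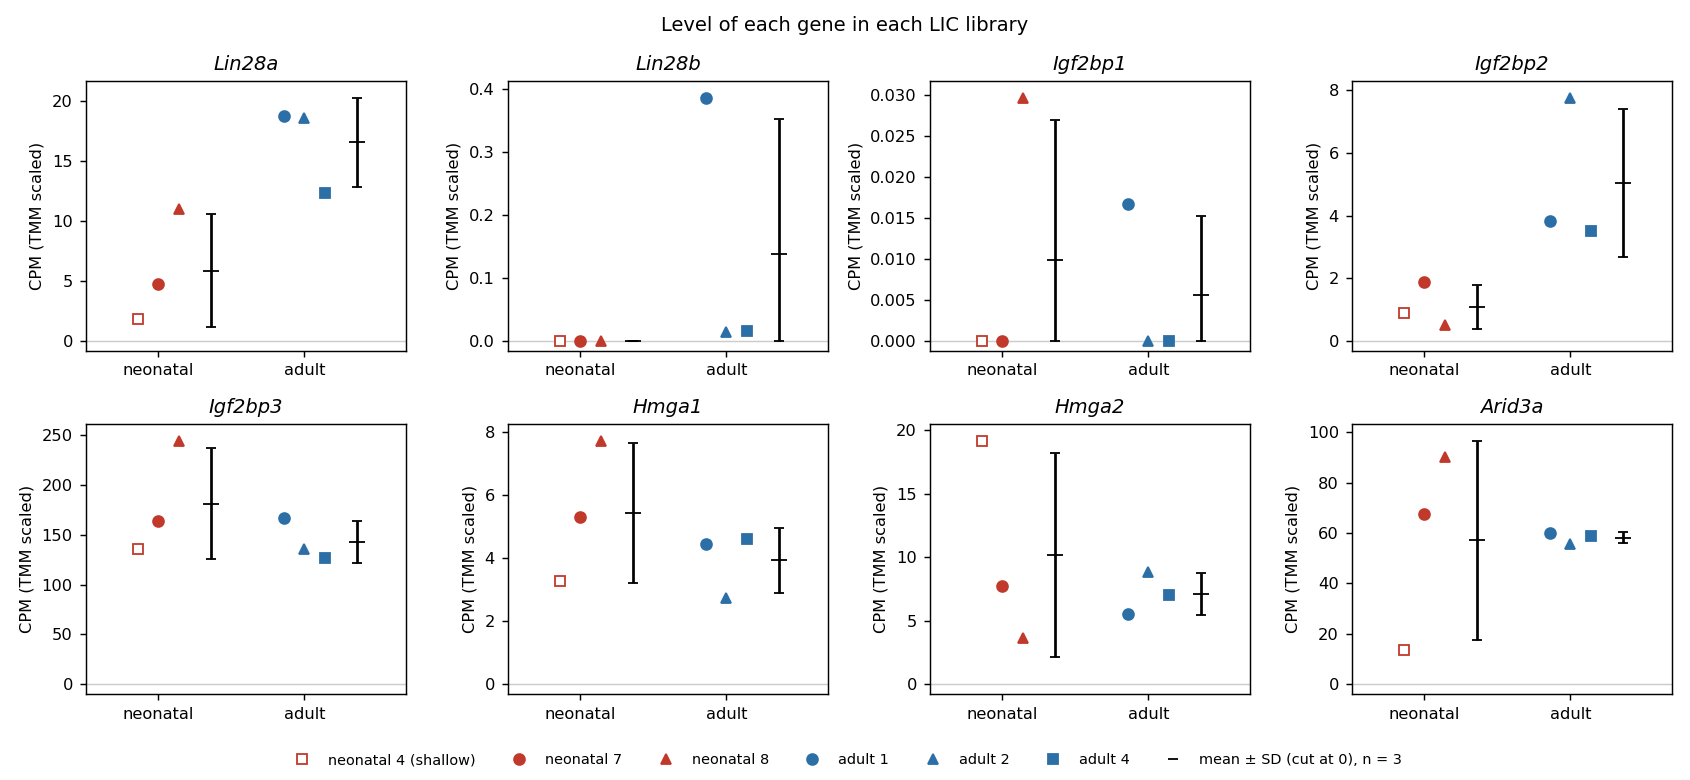
Level of each of the 8 genes in CPM (y axis, from 0, scaled separately per gene) in the neonatal and adult libraries, 1 symbol per library, with mean ± SD (n = 3 each, bars cut at 0). Of the tested genes, Lin28a and Igf2bp2 have all neonatal libraries below the adult ones, and the open square (neonatal replicate 4) is the lowest or highest neonatal value in 5 of the 6 tested genes.

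The order of levels was read as CPM per kilobase of exon, which allows genes to be compared; Hmga1 was not placed in it. Igf2bp3 had the highest mean, 41.7 ± 12.9 CPM per kilobase in neonatal LICs and 32.9 ± 4.84 in adult LICs (SD, n = 3 each). Arid3a was next, with 10.7 ± 7.40 in neonatal and 10.9 ± 0.407 in adult LICs. Among tested genes ranked by this level in adult LICs, Igf2bp3 stood at percentile 78.1 and Arid3a at 56.3. Lin28a stood at 40.5, Hmga2 at 26.2 and Igf2bp2 at 23.3. These 3 were lower than Igf2bp3 and Arid3a: in neonatal LICs Hmga2 averaged 2.44 ± 1.92 CPM per kilobase, Lin28a 1.68 ± 1.35 and Igf2bp2 0.281 ± 0.179. In adult LICs the corresponding means were 1.71 ± 0.399 for Hmga2, 4.76 ± 1.06 for Lin28a and 1.29 ± 0.606 for Igf2bp2. The neonatal means of Hmga2 and Lin28a, and the adult means of Hmga2 and Igf2bp2, differed by less than the larger SD of the pair.

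Lin28a, whose protein recruits a uridylating enzyme to let-7 precursors, was the LIN28 gene with measurable RNA (chr4:134003330-134018816, minus strand, 4 exons; mm10, as all gene positions here). It measured 1.79, 4.76 and 11.0 CPM in neonatal libraries 4, 7 and 8, against 18.8, 18.6 and 12.3 CPM in adult libraries 1, 2 and 4. Every neonatal library was below every adult library, and neonatal replicate 8 came close to adult replicate 4. The value of neonatal replicate 4 rests on 6 counts, with an exact Poisson 95% interval of 0.658 to 3.90 CPM. Neonatal LICs averaged 5.85 ± 4.70 CPM and adult LICs 16.6 ± 3.69 CPM (SD, n = 3 each). The log2 fold change was -1.45 ± 0.62 (SE), with an approximate 95% interval of -2.89 to -0.01 and edgeR adjusted p = 0.415. Without neonatal replicate 4 it was -1.06 ± 0.46 with adjusted p = 0.184. GENCODE places an opposite-strand transcript, Gm13061, over 103 of 3480 exon bases, and these libraries keep no strand.

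Lin28b, the fetal member of the pair, was at or near 0 (chr10:45376619-45470201, minus strand, 5 exons). It had 0, 0 and 0 counts in neonatal replicates 4, 7 and 8 and 23, 1 and 1 counts in adult replicates 1, 2 and 4. Of the 25 adult counts 23 came from adult replicate 1, where they amount to 0.385 CPM. Adult replicates 2 and 4 are under the floor of 3 counts, as are all neonatal libraries, and in neonatal replicate 4 a level of up to 0.897 CPM would give fewer counts than the floor. Expression of Lin28b in the neonatal LICs was thus not detectable at this depth. It was left out of the test by the filter; in an alternative fit with no filter on low counts the log2 fold change was -5.95 with adjusted p = 0.438, a value that depends on the prior count.

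Igf2bp3 (chr6:49085218-49214954, minus strand, 15 exons), which encodes a binder of Myc and Cdk6 mRNA in leukaemia cells, was the main IGF2BP gene in both groups. Its level was 136.3, 163.9 and 244.2 CPM in neonatal libraries 4, 7 and 8, against 166.9, 135.7 and 126.8 CPM in adult libraries 1, 2 and 4. The groups overlapped: neonatal replicate 8 was the highest library, while neonatal replicates 4 and 7 lay within the adult range. The log2 fold change was 0.34 ± 0.32 (SE; interval -0.40 to 1.08; edgeR adjusted p = 0.747), and 0.52 ± 0.23 without neonatal replicate 4 (adjusted p = 0.192). The interval on 6 libraries does not reach beyond 2.12 times the adult level, nor below 0.760 times. Of the summed IGF2BP level per kilobase, Igf2bp3 made up 99.3% ± 0.507 in neonatal and 96.2% ± 1.89 in adult LICs (SD, n = 3 each).

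A neighbour bears on this value. GENCODE gives the opposite-strand gene Malsu1 a long form that shares 1534 of the 4347 Igf2bp3 exon bases (35.3%), and without strand their reads cannot be told apart there. The deposited table lists Malsu1 under 2410003K15Rik in a short form that shares none. That row was at 70.8, 23.0 and 20.1 CPM in neonatal libraries 4, 7 and 8 and 36.3, 24.2 and 30.1 CPM in adult libraries 1, 2 and 4 (log2 fold change 0.31, edgeR adjusted p = 0.874). The part of Malsu1 reads in the Igf2bp3 counts was not tested.

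Igf2bp2 (chr16:22059009-22163299, minus strand, 16 exons), the IGF2BP gene that stays active in adult tissues, had the largest difference of the 6 tested genes. It measured 0.897, 1.87 and 0.519 CPM in neonatal libraries 4, 7 and 8, against 3.84, 7.76 and 3.51 CPM in adult libraries 1, 2 and 4. All neonatal libraries were below all adult ones, and adult replicate 2 stood above the other adult libraries. Neonatal LICs averaged 1.10 ± 0.697 CPM and adult LICs 5.03 ± 2.36 CPM (SD, n = 3 each). The log2 fold change was -2.17 ± 0.71 (SE; interval -3.80 to -0.53) with edgeR adjusted p = 0.284, and -2.07 ± 0.78 without neonatal replicate 4 (adjusted p = 0.140). In DESeq2 without that replicate it was -2.06 with adjusted p = 0.0371, the 1 setting of those run in which any of the 8 genes passed. In that setting 3320 of the 13856 genes fitted passed, so the call is not particular to Igf2bp2. Neonatal replicate 4 gave 3 counts (exact Poisson 95% interval 0.185 to 2.62 CPM), and neonatal replicates 7 and 8 gave 132 and 35.

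As with Igf2bp2 and Lin28a, the neutrophil marker sum was lower in every neonatal library than in every adult one. The summed level of Ngp, Camp, Ltf, S100a8, S100a9, Mmp8 and Cxcr2 was 155, 77.1 and 13.5 CPM in neonatal libraries 4, 7 and 8, against 5600.5, 14309 and 1756 CPM in adult libraries 1, 2 and 4. All 7 had a negative log2 fold change, 5 without overlap between the groups, while Mmp8 and Cxcr2 overlapped. On 6 libraries 0 of 7 passed, and without neonatal replicate 4 S100a8 passed (log2 fold change -8.53, edgeR adjusted p = 0.0437). Adult replicate 2 was the highest library for this sum as for Igf2bp2. Within the neonatal group the order differed. The sum was highest in neonatal replicate 4, where Lin28a was lowest (1.79 CPM), while Igf2bp2 was highest in neonatal replicate 7 (1.87 CPM). The B cell marker sum, nearly all of it Cd79b, was 73.1 to 149 CPM in neonatal libraries, against 29.4 to 69.5 CPM in adult ones. Cd79a and Vpreb1 overlapped between the groups, and Pax5 and Ms4a1 were at 0 in all libraries. The stromal and endothelial sum, mostly Pecam1, was 71.4 to 99.7 CPM in neonatal libraries, against 28.1 to 67.9 CPM in adult ones, with Cdh5, Kdr and Col3a1 at 0. The sums of T cell, erythroid and megakaryocyte markers overlapped between the groups. The part of these cell types in the differences of Igf2bp2 and Lin28a was not tested.

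Igf2bp1, the IGF2BP gene best known from the embryo (chr11:95957164-96005944, minus strand, 15 exons), did not reach the floor in any library. It had 0, 0 and 2 counts in neonatal replicates 4, 7 and 8 and 1, 0 and 0 counts in adult replicates 1, 2 and 4. Both groups thus held fewer than 3 counts in all, so no fold or test is given.

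Hmga1 (chr17:27556574-27563672, plus strand) measured 3.29, 5.31 and 7.70 CPM in neonatal libraries 4, 7 and 8, against 4.46, 2.74 and 4.60 CPM in adult libraries 1, 2 and 4. Neonatal replicates 7 and 8 were above all adult libraries, and neonatal replicate 4, on 11 counts, was within their range. The log2 fold change was 0.49 ± 0.53 (SE; interval -0.73 to 1.71; edgeR adjusted p = 0.795), and 0.74 ± 0.47 without neonatal replicate 4 (adjusted p = 0.339). Its level is read as a lower limit, since not all of its reads may have been counted, and it was not compared with the levels of other genes.

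Hmga2 (chr10:120361275-120476935, minus strand, 5 exons) measured 19.1, 7.76 and 3.64 CPM in neonatal libraries 4, 7 and 8, against 5.50, 8.83 and 7.04 CPM in adult libraries 1, 2 and 4. The neonatal libraries spanned the whole adult range: neonatal replicate 4 was the highest of all 6, with 64 counts and an exact Poisson 95% interval of 14.7 to 24.4 CPM, and neonatal replicate 8 the lowest. The log2 fold change was 0.48 ± 0.63 (SE; interval -0.99 to 1.95; edgeR adjusted p = 0.834). Without neonatal replicate 4 the sign turned, to -0.31 ± 0.49 (adjusted p = 0.713). A single-exon copy, Hmga2-ps1 (chr1:176834624-176836133), had more counts than Hmga2 itself, 26.0, 27.4 and 18.5 CPM in neonatal libraries 4, 7 and 8, against 82.4, 51.6 and 79.0 CPM in adult replicates 1, 2 and 4. Its neonatal values were all lower (log2 fold change -1.57 ± 0.34, SE, edgeR adjusted p = 0.141; -1.62 and 0.0431 once neonatal replicate 4 was left out, where it passed). Hmga2-ps1 lies within the opposite-strand gene Sdccag8 (chr1:176814812-177020432), with 0 shared exon bases. These libraries keep no strand, and the part of unspliced Sdccag8 RNA in the counts of Hmga2-ps1 was not tested. Of the 75-base windows in Hmga2 transcripts 1.18% also occur in other GENCODE transcripts; only 339 of the 1510 bases of this copy lie in such a transcript, and the rest of it was not searched.

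Arid3a (chr10:79927072-79955012, plus strand, 9 exons) measured 13.5, 67.7 and 90.1 CPM in neonatal libraries 4, 7 and 8, against 60.0, 55.8 and 58.9 CPM in adult libraries 1, 2 and 4. The adult libraries were close together, neonatal replicates 7 and 8 lay above them and neonatal replicate 4 far below. Counting error does not span that gap: 45 counts gave an exact Poisson 95% interval of 9.81 to 18.0 CPM. The log2 fold change was -0.02 ± 0.59 (SE; interval -1.38 to 1.35; edgeR adjusted p = 0.996), and 0.45 ± 0.20 without neonatal replicate 4 (adjusted p = 0.185). The sign of Arid3a thus turned with 1 library, and no 75-base window of its transcripts occurs in another gene.

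**Figure D3:**
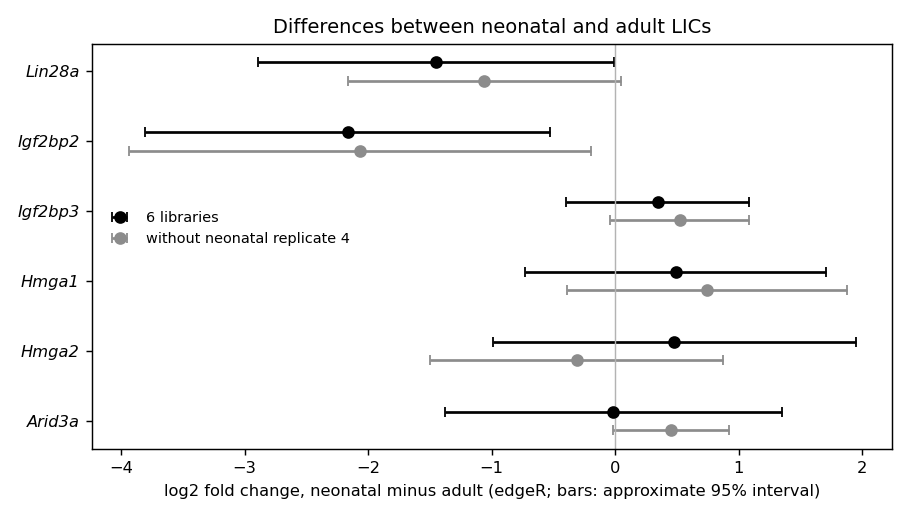
Log2 fold change, neonatal minus adult, of the 6 tested genes (x axis) from edgeR on all 6 libraries (black) and without neonatal replicate 4 (grey), with approximate 95% intervals. Igf2bp2 is at -2.17 and -2.07, while Hmga2 (0.48 and -0.31) and Arid3a (-0.02 and 0.45) change sign.

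Predicted genes (symbols of Gm and digits, or ending in Rik) were left out of a search for similar patterns over the 6 libraries. For each tested gene the 3 closest of 10000 remaining genes of at least 2 CPM were found, by the root mean square difference of centred log2 CPM. For Lin28a these were Pfkfb4 (0.255), Ddx58 (0.320) and Eif2c4 (0.396), and for Igf2bp2 Fam196b (0.310), Itpr2 (0.325) and Gca (0.394). Igf2bp3 was closest to Cdkn2aip (0.0773), Pldn (0.0845) and Galt (0.0908). Hmga1 was closest to Gpr132 (0.0850), D1Bwg0212e (0.121) and C78339 (0.122). The nearest to Hmga2 were Vkorc1 (0.132), Pkib (0.140) and Apip (0.194), and to Arid3a Fes (0.0872), Opa3 (0.105) and Hoxa3 (0.115). The 6 libraries share the depth gap of neonatal replicate 4, and these distances are descriptions.

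The machinery that LIN28 proteins act on was measured next. Of 20 genes of let-7 processing and decay, 19 were tested, 9 with a positive and 10 with a negative log2 fold change (median -0.07), and 0 passed. Without neonatal replicate 4 the median turned to 0.04, with 12 positive and 7 negative. Zcchc11 (TUT4), the enzyme that LIN28A recruits to add uridines to let-7 precursors, measured 10.5, 5.98 and 29.2 CPM in neonatal libraries 4, 7 and 8, against 2.31, 0.789 and 2.10 CPM in adult libraries 1, 2 and 4. Every neonatal library was above every adult one (log2 fold change 3.14 ± 0.75, SE, edgeR adjusted p = 0.167; 3.35 and 0.0544 without neonatal replicate 4). Its relative Zcchc6 (TUT7) had a log2 fold change of -0.85 with adjusted p = 0.579, and the groups overlapped. Dis3l2, the nuclease that degrades uridylated precursors, measured 26.0, 54.1 and 70.1 CPM in neonatal libraries 4, 7 and 8, against 33.1, 31.7 and 32.3 CPM in adult libraries 1, 2 and 4. It passed only when neonatal replicate 4, its lowest library, was left out (log2 fold change 0.95, adjusted p = 0.049). The Argonaute genes Eif2c4 and Eif2c3, which hold microRNAs in the silencing complex, had neonatal libraries wholly below adult ones without passing. Eif2c4 (Ago4) had a log2 fold change of -1.40 with adjusted p = 0.323, and Eif2c3 (Ago3) -0.60 with 0.643.

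The let-7 genes themselves could not be read from these libraries. All 12 are listed, 0 were tested and 7 had no count in any library. Their summed level was 0.207 to 0.299 CPM in neonatal libraries, against 0.0779 to 0.553 CPM in adult ones. PolyA-selected RNA does not measure mature microRNAs, so let-7 activity remains unmeasured here.

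Other known let-7 targets were taken as a list of 29 genes, of which 26 were tested. Of these 7 had a positive and 19 a negative log2 fold change, with a median of -0.35 against 0.05 over all tested genes, and 0 passed on 6 libraries. The largest differences without overlap were in Fas, a death receptor, and Ccnd1, a G1 cyclin. Fas measured 8.07, 5.64 and 3.72 CPM in neonatal libraries 4, 7 and 8, against 28.6, 13.6 and 19.9 CPM in adult libraries 1, 2 and 4 (log2 fold change -1.86, edgeR adjusted p = 0.174). It passed as lower without neonatal replicate 4 (-2.13, adjusted p = 0.0474). Ccnd1 had a log2 fold change of 1.52, Zbtb16 of -1.38 and Hic2 of -1.29, with adjusted p of 0.499, 0.634 and 0.461. Trim71 and Mycn, classic targets, had no count in any library. Over all tested genes outside the set, those with 2 or more seed matches in the 3′ UTR (147) had a median log2 fold change of -0.09, those with 1 match (1001) -0.03 and those with none (10074) 0.07. Without neonatal replicate 4 the medians were -0.10, 0.02 and -0.01; genes with matches have longer UTRs (medians of 3652, 2215 and 1016 bases).

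Around the IGF2BP proteins, 18 granule partners and genes of the m6A mRNA methylation pathway were tested, 7 with a positive and 11 with a negative log2 fold change (median -0.20), and 0 passed; without neonatal replicate 4 there were 9 of each sign (median -0.06). Ythdf3, a cytoplasmic reader of m6A, measured 65.8, 57.6 and 72.1 CPM in neonatal libraries 4, 7 and 8, against 113, 121 and 93.8 CPM in adult libraries 1, 2 and 4, without overlap (log2 fold change -0.75, edgeR adjusted p = 0.337). Ythdc2 (-0.82, adjusted p = 0.499) and 1110037F02Rik, which encodes the methylase subunit Virma (-0.63, adjusted p = 0.499), also lay wholly below the adult libraries. Of 10 mRNAs known to be bound by IGF2BP proteins, 7 were tested, 3 positive and 4 negative (median -0.17), and 0 passed on 6 libraries. Without neonatal replicate 4 the median turned to 0.38, with 5 of 8 positive. That fit also tested Gli1 (log2 fold change 1.45, edgeR adjusted p = 0.669), with 31 counts in neonatal replicate 7 and 0 in neonatal replicate 8. The medians are therefore not over the same genes. Myc measured 303, 488 and 381 CPM in neonatal libraries 4, 7 and 8, against 66.9, 264 and 195 CPM in adult libraries 1, 2 and 4. All neonatal libraries were above all adult ones, but the log2 fold change of 1.15 did not pass (edgeR adjusted p = 0.424). Cd44, an adhesion receptor, passed only without neonatal replicate 4 (1.39, adjusted p = 0.0360). H19 had no count, and Igf2 had 0 CPM in all neonatal libraries and at most 0.164 CPM in adult ones.

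Of 9 other high mobility group genes all were tested, 6 positive and 3 negative (median 0.12), and 0 passed. Hmgn1, a nucleosome-binding protein, measured 311, 129 and 162 CPM in neonatal libraries 4, 7 and 8, against 31.6, 84.6 and 63.8 CPM in adult libraries 1, 2 and 4, without overlap (log2 fold change 1.74, edgeR adjusted p = 0.212). Hmgn3 also had no overlap (log2 fold change 5.35, adjusted p = 0.258), at 10.2, 0.822 and 0.563 CPM in neonatal libraries 4, 7 and 8, against 0, 0.164 and 0.0935 CPM in adult libraries 1, 2 and 4. Its highest library was neonatal replicate 4, and the log2 fold change was 2.99 without it (adjusted p = 0.215). Hmg20b, part of a histone demethylase complex, had a log2 fold change of 0.45 with adjusted p = 0.658.

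Of 14 other genes of the ARID family, 13 were tested, 3 positive and 10 negative (median -0.43). The 1 that passed was the Y-linked Kdm5d, with 0 counts in neonatal libraries 4, 7 and 8 and 31.2, 29.3 and 31.3 CPM in adult libraries 1, 2 and 4 (edgeR adjusted p = 0.0110). Arid3b, the closest relative of Arid3a listed with counts, measured 2.69, 7.05 and 8.93 CPM in neonatal libraries 4, 7 and 8, against 21.3, 23.1 and 7.96 CPM in adult libraries 1, 2 and 4. The groups overlapped through adult replicate 4 (log2 fold change -1.45, adjusted p = 0.390). Arid3c had no count.

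**Figure D4:**
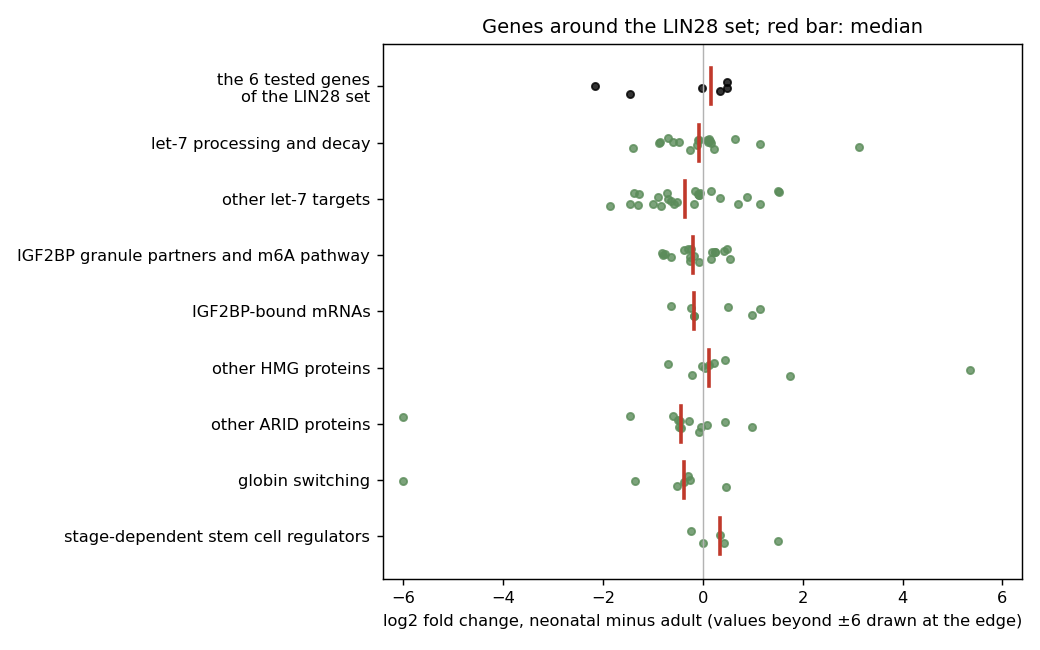
Log2 fold change, neonatal minus adult, of each tested gene (points) in the LIN28 set and in 8 lists of related genes, with the median of each list as a red bar. The medians lie between -0.43 and 0.35, and the points at the edges are genes beyond the axis, such as the Y-linked Kdm5d.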

How the data were processed

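The table deposited by the authors holds raw counts, which featureCounts 1.5.1 assigned to UCSC mm10 genes from primary alignments with no strand setting, per the file headers. Trimmomatic, Bowtie, TopHat and DESeq2 appear, with no version, in the submitters' processing notes. Libraries were read single-end with 75 bases on a kit that does not mark strand, per the labels' protocols. Of the deposited table only the gene names, positions, exon lengths and counts were used.

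Counts were fitted with edgeR 4.0.16 (R 4.3.3), keeping genes by filterByExpr at a minimum count of 10 and scaling by TMM (robust quasi-likelihood fit and F test; Benjamini-Hochberg, threshold 0.05). This left 13272 genes with a common biological coefficient of variation of 0.531. The SE was the absolute log2 fold change divided by the square root of F, and intervals are that SE times the t quantile, both approximate. Similarity used log2 CPM with a prior count of 2. Alternatives included DESeq2 1.42.0 and limma 3.58.1 (voom). DESeq2 and voom without neonatal replicate 4 were added after its depth was seen. The fits were tested on simulated counts.

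The 8 genes, the gene lists and the naming rule were chosen with earlier results of these data known. From each list up to 4 tested genes were named, those with the largest difference without overlap and at least 2 CPM in the higher group. Marker lists are given as sums, with some single markers named after their values were seen. A result that bears on the counting of Hmga1 and 1 marker gene are not reported here. Hmga2-ps1, 2410003K15Rik, Zcchc6, Dis3l2, Arid3b, Cd44, Igf2, Bcl11a, Beta-s and the genes with no count were named after their values were seen. Bcl11a averaged less than 2 CPM in its higher group, so the naming rule did not reach it. Some symbols were matched through synonyms (Ago genes as Eif2c).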

Additional observations from a re-analysis of the deposited data

How the results depend on the processing

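No paired analysis was possible because the groups share only the replicate number 4, and nothing says that the number pairs the libraries. The count of genes that passed was 7 with edgeR on 6 libraries, 759 with DESeq2, 1056 with voom and library quality weights, 592 with edgeR's likelihood ratio test, and 0 with chromosomes X and Y left out. It ranged from 1 to 828 when 1 library was left out, with 828 without neonatal replicate 4, and was 3320 with DESeq2 and 928 with voom without that replicate. Of the 8 genes 0 passed in these settings, except Igf2bp2 in DESeq2 without neonatal replicate 4 (a count of 1). Over the alternatives the adjusted p ranged from 0.0371 to 0.931 for Igf2bp2 and from 0.0825 to 0.960 for Lin28a, with log2 fold changes of -2.94 to -1.71 and -2.26 to -1.06. Hmga2 turned to -0.19 with voom, -0.36 with quality weights and -0.31 without neonatal replicate 4 (-0.31 in DESeq2 and -0.38 in voom as well). Arid3a turned to 0.0611 with voom, 0.33 with quality weights, 0.0052 with library totals, 0.026 without adult replicate 1 and 0.45 without neonatal replicate 4 (0.45 in DESeq2 and 0.43 in voom as well). With 1 library left out Hmga2 ranged from -0.31 to 0.89 and Arid3a from -0.50 to 0.45. With all libraries thinned to the shallowest, Hmga1 turned to -0.14, Ccnd1 to -0.32 and Zbtb16 to 2.01. The cause was not tested. Neonatal replicate 4 limits what could be detected for Lin28b, Igf2bp1 and Igf2bp2, whose counts there were 0, 0 and 3.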

Other observations

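Further lists bear on fetal against adult blood programmes. Of 16 globin switching genes 15 were in the table and 7 were tested, 1 with a positive and 6 with a negative log2 fold change (median -0.37), and 0 passed on 6 libraries. The embryonic globins Hbb-y and Hbb-bh1 and the rows Hbb-b1, Hbb-b2, Hba-a1 and Hba-a2 had no count in any library. The adult beta globin row Beta-s, matched to Hbb-bs, measured 3.59, 0.0283 and 0.222 CPM in neonatal libraries 4, 7 and 8. In adult libraries 1, 2 and 4 it measured 0.0335, 6.73 and 0.982 CPM, and the groups overlapped (log2 fold change -1.36, edgeR adjusted p = 0.851). The adult rows are near-identical copies, so their counts are uncertain. Bcl11a, the repressor of embryonic and fetal globin genes, had 0 counts in all 3 neonatal libraries and 1.04, 2.89 and 0.530 CPM in adult replicates 1, 2 and 4. Its neonatal values passed as lower only without neonatal replicate 4 (edgeR adjusted p = 0.0478; 0.143 on 6 libraries), and a count of 0 in that library allows up to 0.897 CPM.

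Of 6 genes known to act differently in fetal and adult stem cells, 5 were tested, 4 positive and 1 negative (median 0.35), and 0 passed. Bmi1, a Polycomb gene needed by adult stem cells, measured 72.0, 68.5 and 69.7 CPM in neonatal libraries 4, 7 and 8, against 58.3, 49.8 and 49.1 CPM in adult libraries 1, 2 and 4. The groups did not overlap (log2 fold change 0.42, edgeR adjusted p = 0.603). Sox17, a regulator of fetal stem cells, had no count in any library.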
